A study of Mus musculus with 18 samples.

Results

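The Myc window was taken as chromosome 15 from 61.7 to 63.5 Mb in mm9, which holds Myc, Pvt1 and the stretch around the Notch-dependent Myc enhancer known about 1.3 Mb downstream of the gene. Its members are all listed regions of the 4 deposited lists that share 1 bp or more with this window. There were 8 of them among 60531 listed regions, and all 8 came from the H3K4me3 list (7 shown in green and 1 in red). The H3K9ac list holds no region anywhere on chromosome 15, so it could give no member. Within this window, members were taken by position alone and by no measured value. The window itself was chosen with earlier results of these data known. Distances below are counted from the Myc start, taken to the nearest 1 kb as 61.817 Mb, with Myc ending at about 61.822 Mb and negative values upstream.

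The lists come from chromatin immunoprecipitation sequencing (ChIP-seq) of 2 kinds of mouse cells: thymocytes positive for both CD4 and CD8 (double-positive, DP), and T cell acute lymphoblastic leukaemia (T-ALL). The T-ALL cells are tumours overexpressing Notch1-IC, the intracellular and active form of Notch1, and the DP cells come from normal thymus. H3K27me3, H3K4me3 and H3K9ac each had 2 DP and 2 T-ALL libraries, beside 2 nuclease-treated inputs for each cell type, and Notch1 had 1 T-ALL library with 1 sonicated input. The sources used here give no strain, age, sex, promoter or vector for Notch1-IC and no number of animals, nor do they say whether replicates came from separate mice. Each histone list compares T-ALL with DP cells and shows every region in green or red. The meaning of the colours is stated nowhere in the files or labels, so no direction of change can be given for any region. The lists carry no value per library, no fold change and no depth. Regions are therefore described by position, width and colour, with no test between samples.

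Myc encodes a basic helix-loop-helix transcription factor that drives cell growth and division, and it is a known target of Notch1 in T-ALL. Pvt1 is a long noncoding RNA gene, the next annotated gene downstream of Myc in the RefSeq table of GRCm38. In that table Gsdmc is the next protein-coding gene, and 0 of the 16 genes annotated wholly between Myc and Gsdmc code for protein. The Notch-dependent enhancer is bound by Notch1 in T cell leukaemia and acts on Myc across this stretch. H3K4me3 is a mark of active promoters. Distal enhancers as a rule carry little of it and are better seen with other marks. The only other mark of active chromatin measured here was H3K9ac, whose list holds no region on chromosome 15. H3K27me3 is the repressive mark of Polycomb repressive complex 2.

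At the Myc start the H3K4me3 list held a short red region with a green region on each side. The red region lay on chromosome 15 from 61816826 to 61817325, that is from -0.174 to 0.325 kb, and was 500 bp wide. It is the member that holds the Myc start as taken here. The green region before it lay from 61815476 to 61816225, from -1.52 to -0.775 kb, and was 750 bp wide. The green region after it lay from 61819776 to 61820950, from 2.78 to 3.95 kb, was 1175 bp wide and lay between the start and the end of Myc. Gaps of 600 and 2450 bp separated the red region from these neighbours. The Myc start is known here only to the nearest 1 kb. Placed 1 kb earlier it would fall in the upstream green region, and placed 1 kb later it would fall in no listed region.

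The order green, red, green was the one met most often among the 8 possible orders in groups of 3 H3K4me3 regions. A group here joins neighbouring regions separated by at most 5 kb, over the whole list. Of 854 groups of 3, 309 (36.2%) had this order, 181 (21.2%) were all green, 78 (9.13%) all red and 32 (3.75%) had a green region between red ones. Counted by region, 443 of 11160 red H3K4me3 regions (3.97%) lay between green neighbours within 5 kb, and 17 of these were on chromosome 15. Their median width was 600 bp, against 500 bp at Myc. The arrangement at Myc is thus shared with many other places in the list and is not particular to the gene.

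Groups arranged like the one at Myc seldom held a Notch1 peak. A peak shared bases with a region of 7 of the 309 green, red, green groups (2.27%) and of 6 of the 181 all-green groups (3.31%), but of 48 of the 78 all-red groups (61.5%). Taken singly, 15 of the 443 red regions between green ones (3.39%) shared bases with a peak, while over the list 17.2% of red and 1.02% of green H3K4me3 regions did. The group at Myc held 0 peaks, which follows from the whole window holding none and is not a separate result. Most groups of every order except all red held none either. Among those orders the share with a peak was highest, at 43.8%, for red, green, red.

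**Figure D1:**
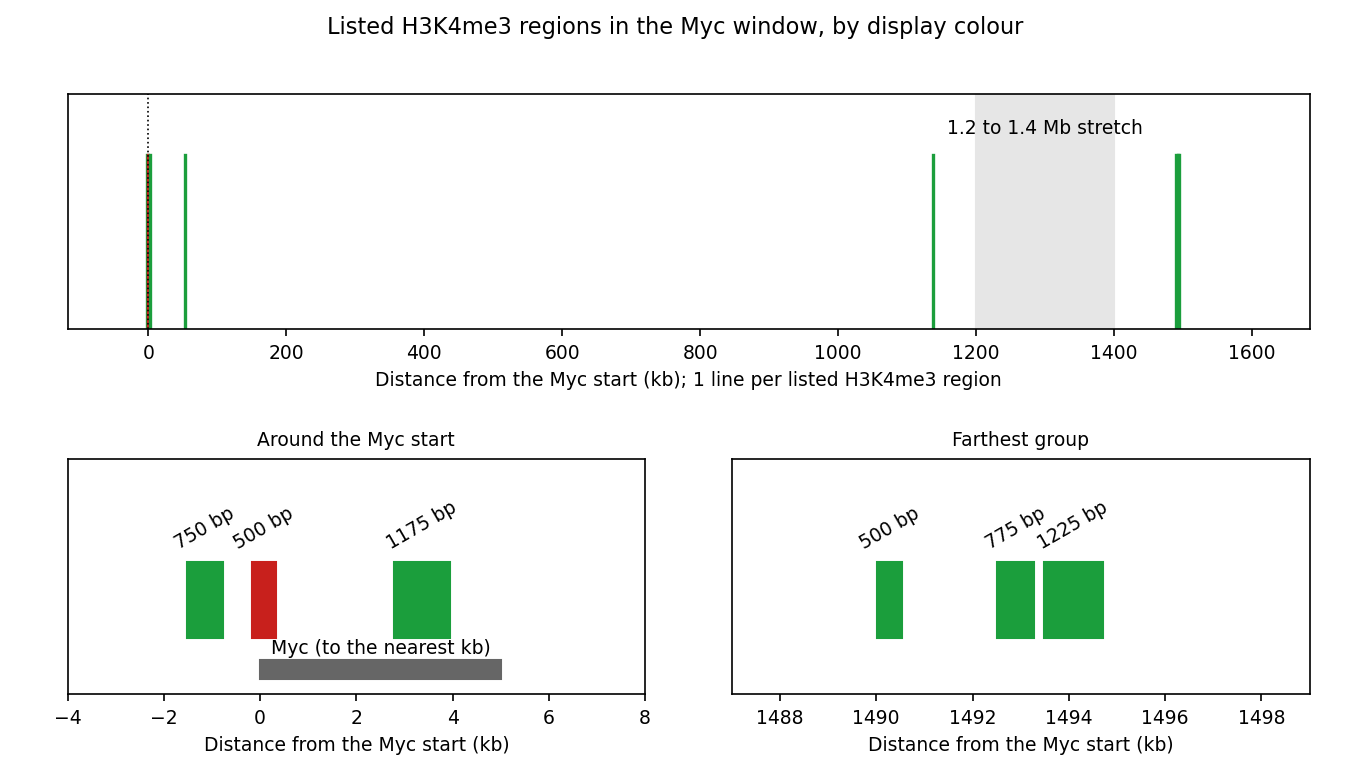
Positions of the 8 listed H3K4me3 regions by distance from the Myc start in kb, over the whole window (top, 1 line per region, with the stretch from 1.2 to 1.4 Mb shaded) and in close view at each end (bottom, boxes to scale with widths in bp). The red region lies at the Myc start between green ones, the remaining regions are green, and the shaded stretch is empty.

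The next member downstream was a green region from 61869651 to 61870375, 725 bp wide, at 52.7 to 53.4 kb. It followed the last region in Myc after a gap of 48.7 kb. It lies on the side of Myc where Pvt1 begins. No mm9 annotation was used, so the region was not assigned to the Pvt1 promoter, an exon or an intron.

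After it came the longest stretch of the window without a listed region, 1.08 Mb from 61870376 to 62954250. Of 21086 gaps between neighbouring H3K4me3 regions over all chromosomes, 413 were this long or longer, and the median gap was 28.1 kb. On chromosome 15 there were 14 such gaps among 922. They made up 28.9% of the span of that chromosome, so stretches of this kind are a common part of it.

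A lone green region ended the gap. It lay from 62954251 to 62955325, was 1075 bp wide and stood at 1137 to 1138 kb. On its downstream side the next member followed after 352 kb. Lone regions were usual in the list, since 10817 of 15198 H3K4me3 groups (71.2%) consisted of 1 region.

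The stretch around the known enhancer distance held no listed region of H3K4me3, H3K27me3 or Notch1. The H3K9ac list is empty over the whole of chromosome 15 and could give none. Between 1.2 and 1.4 Mb downstream of the Myc start, from 63017001 to 63217000, there were 0 H3K4me3 regions, 0 H3K27me3 regions and 0 Notch1 peaks. The nearest members to the point 1.3 Mb downstream were the lone green region, 162 kb before it, and the beginning of the next group, 190 kb after it. Widening the stretch to between 1.1 and 1.5 Mb took in 4 green H3K4me3 regions and still 0 Notch1 peaks. A missing entry shows only that the authors' calling listed nothing there. For a histone mark it can mean presence at a like level in both cell types as well as absence, and these cannot be told apart from the lists.

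The farthest members formed a group of 3 green regions within 4675 bp, at 1490 to 1495 kb. They lay from 63307026 to 63307525 (500 bp), from 63309501 to 63310275 (775 bp) and from 63310476 to 63311700 (1225 bp). Only 200 bp separated the last pair, and 1975 bp the pair before. This group covered 2500 bp, close to the 2425 bp covered by the 3 regions at Myc, but without a red region. Thus 6 of the 8 members lay in these groups, at Myc and about 1.49 Mb away, and 2 lay alone between them.

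The widths of the green members ran from 500 to 1225 bp with a median of 775 bp, beside 700 bp over the 10242 green H3K4me3 regions of the list. The 3 broadest were the last region of the farthest group, wider than 89.0% of green regions, the one inside Myc, wider than 87.3%, and the lone one at 1.14 Mb, wider than 83.5%. The narrowest was the region of 500 bp that opens the farthest group, wider than only 5.36%. The red region at the Myc start was wider than 9.33% of the 11160 red regions, whose median was 625 bp. The members were of ordinary width, and none approached the broadest green region of the list, at 6675 bp.

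**Figure D2:**
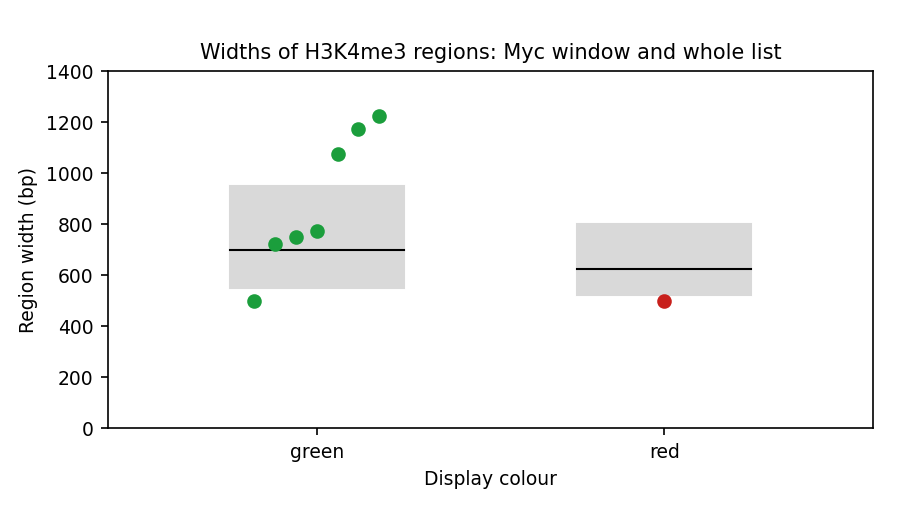
Width in bp of each H3K4me3 region of the Myc window (points), by display colour, over the middle 50% of the whole list (grey box) with its median (line). Of the green points 3 lie above the box and 1 below it, and the red point lies just below its box.

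Green regions were about as dense in the window as elsewhere on the chromosome, and red ones were sparse. Green H3K4me3 regions stood at 3.89 per Mb in the window and at 4.11 per Mb over the rest of chromosome 15. Red ones stood at 0.556 and 5.34 per Mb. At the density of the rest of the chromosome the window would have held 7.40 green and 9.61 red regions, against the 7 and 1 listed. The share of green was 87.5% (95% Clopper-Pearson interval 47.3 to 99.7, counting error only) in the window, 43.4% (40.2 to 46.7) over the rest of the chromosome and 47.9% over the whole list. The interval for the window just includes the share of the whole list and lies above that of the rest of the chromosome. Neighbouring regions are not independent, so the interval is too narrow.

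Windows of the same width, 1.8 Mb, were laid end to end over all chromosomes for comparison, leaving out those that touch the Myc window. The median over these 1413 windows was 5 green and 4 red H3K4me3 regions. Of them, 41.2% held 7 or more green H3K4me3 regions, 26.6% held 1 or 0 red ones, and 0.920% (13 windows) did both. Each count was thus common by itself and the pairing of the 2 counts was uncommon. Both limits were read from the Myc window itself, and its red count depends on where the window ends. Widened by 500 kb at each end, it held 5 red regions and still 7 green ones. These shares describe the list, and no test was made of them.

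The window held 0 Notch1 peaks and 0 H3K27me3 regions. At the density of the rest of chromosome 15, where the lists held 7.37 peaks and 11.7 H3K27me3 regions per Mb, it would have held 13.3 and 21.1. Regions are unevenly spread, however, and the median over the other windows was lower, at 4 peaks and 6 H3K27me3 regions. Of the other windows 15.5% held no Notch1 peak, 17.8% no H3K27me3 region and 10.6% neither (7.63% when only autosomes were counted). Most windows with neither were nearly empty of H3K4me3 regions too, with a median of 0.5, and 94.7% of them held fewer than 8. Windows with neither and with 8 or more H3K4me3 regions made up 0.566% (8 windows). Among the 62 windows with exactly 8 H3K4me3 regions, 1 held no Notch1 peak, 4 held no H3K27me3 region and 1 held neither, and the median was 4 peaks and 5 H3K27me3 regions. Those windows were matched on number and not on colour. In the 13 windows with 7 or more green and 1 or 0 red H3K4me3 regions, as at Myc, the median was 1 peak and 1 H3K27me3 region. Of these, 5 held no peak, 4 held no H3K27me3 region and 3 held neither, so that among windows of like colour the absence was met more than once.

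None of the 8 members shared bases with a Notch1 peak or with an H3K27me3 region. This follows from the 0 peaks and 0 H3K27me3 regions of the window and is not a separate result. Over the whole list 9.45% of H3K4me3 regions shared bases with a peak and 8.56% with an H3K27me3 region. For peaks the share by colour bears more closely on the members, 7 of which are green, and it was 1.02% for green and 17.2% for red regions.

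**Figure D3:**
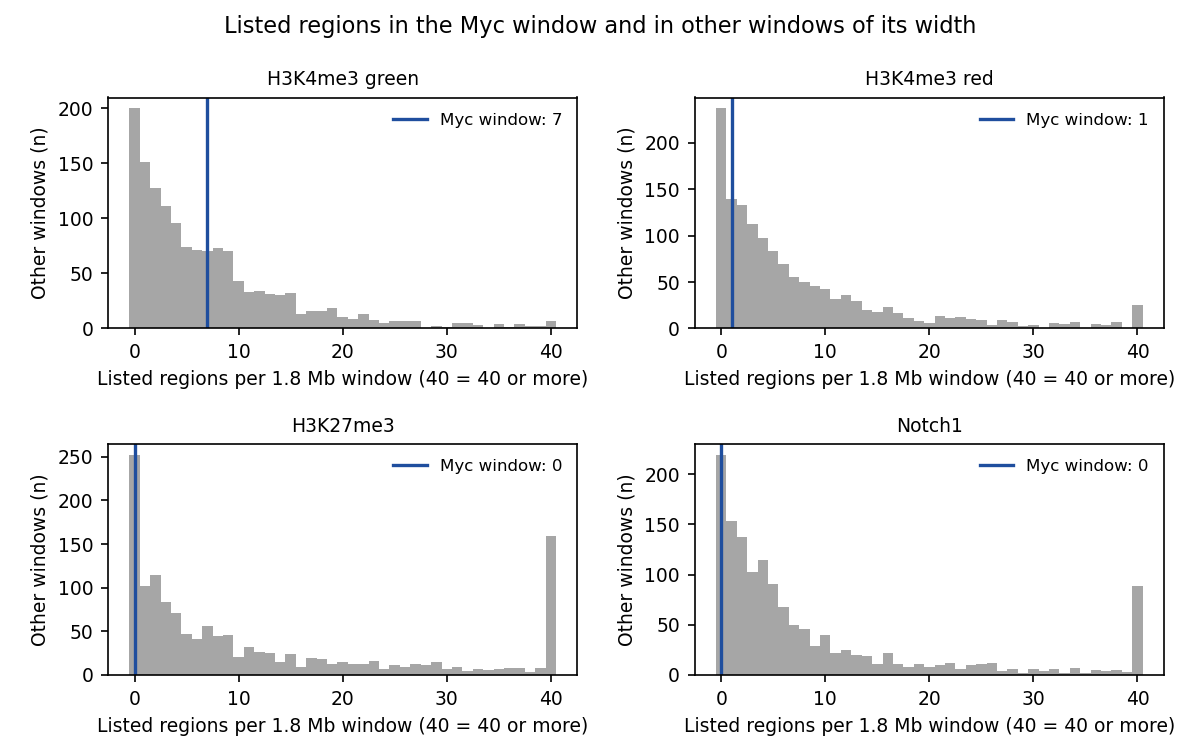
Number of listed regions per window of 1.8 Mb (horizontal axis, with 40 or more pooled) in the 1413 other windows (bars, number of windows), for green and red H3K4me3 regions, H3K27me3 regions and Notch1 peaks. The blue line marks the Myc window, at 7, 1, 0 and 0.

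The nearest Notch1 peaks lay far outside the window. Upstream, the nearest ran from 60088601 to 60089400, 1.73 Mb before the Myc start. Downstream, it ran from 64751851 to 64752875, 2.93 Mb after it. The stretch of 4.66 Mb between them was among the 2 longest of 724 gaps between peaks on chromosome 15, and 36 of 14528 gaps over all chromosomes were as long or longer. By length, gaps of at least this size made up 12.6% of the span of chromosome 15 and 11.1% of that of all chromosomes. The nearest H3K27me3 regions were a green one, 1.16 Mb upstream, and a red one, 2.39 Mb downstream, which left 3.56 Mb without a listed region. Among H3K27me3 gaps 4 of 1127 on chromosome 15 were as long, and such gaps made up 23.0% of its span and 18.3% of that of all chromosomes. All 8 members thus lay within 1 long stretch free of listed Notch1 peaks and of listed H3K27me3 regions. The peak list rests on 1 library, so whether a second library would list a peak here was not tested.

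The H3K9ac list, the other mark of active chromatin in the series, held 0 regions on the whole of chromosome 15. It held regions on 11 chromosomes only. Its 0 in the window therefore says nothing about Myc, and H3K9ac was not analysed here for this locus.

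The H3K4me3 regions next to the window on either side were red. Going outward from the window, the nearest upstream was red, 650 kb from the window and 767 kb before the Myc start. The nearest downstream was also red, from 63568051 to 63568575, 68 kb past the end of the window and 1.75 Mb after the Myc start. Within 2 Mb of the window, 4 red regions and 1 green one lay upstream, and 6 red and 0 green ones lay downstream. From the region inside Myc to the end of the farthest group, 6 green regions followed each other over 1.49 Mb with no red one between them. Of 4761 unbroken runs of green H3K4me3 regions, 237 (4.98%) held 6 or more, and 9 of those were on chromosome 15. The median green run held 1 region and the longest 43. Runs of 6 or more spanned 0.306 Mb at the median, against 1.49 Mb here. The span here includes gaps of 1.08 Mb and 352 kb without a listed region. How many runs spanned as much was not counted.

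**Figure D4:**
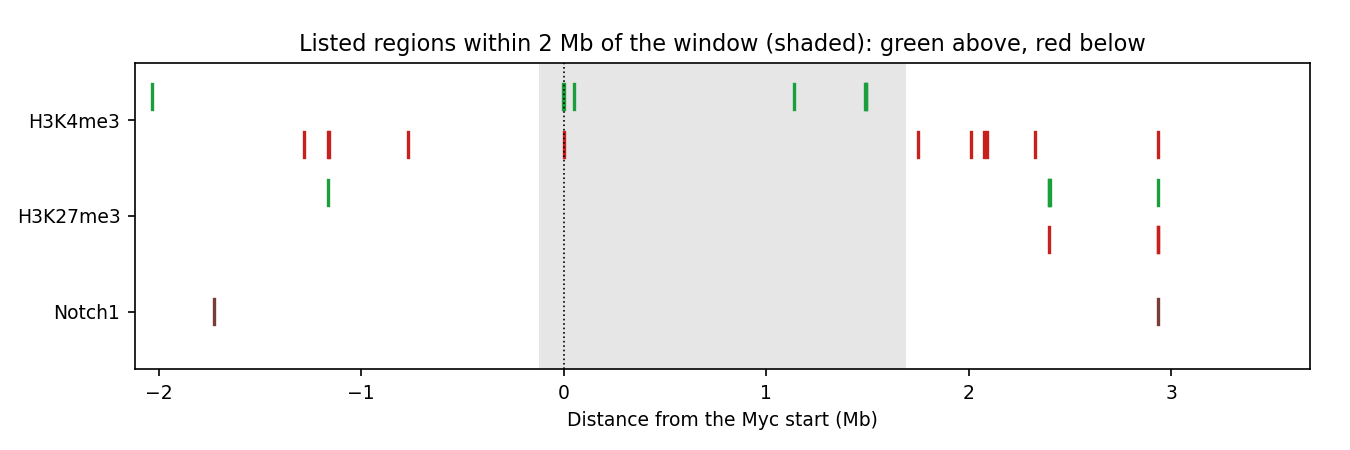
Listed regions of H3K4me3, H3K27me3 and Notch1 within 2 Mb of the Myc window (shaded), by distance from the Myc start in Mb, with green regions drawn above red ones in each histone row. The H3K4me3 regions in the shaded window are green apart from 1 red region at the Myc start, red ones lie to either side, and the rows of H3K27me3 and Notch1 are empty from -1.16 to 2.39 Mb and from -1.73 to 2.93 Mb.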

How the data were processed

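After fixation for 10 min in 1% formaldehyde, chromatin was cut with micrococcal nuclease for the histone marks and sonicated for Notch1, and fragments were read from one end over 36 bp, per the labels' protocols. Reads were aligned with BWA to NCBIM37/mm9, per the submitters' processing notes. How regions were called, with which thresholds and inputs, and whether replicates were pooled is not given in the sources used here. In all 4 lists that the authors deposited, the BED score is 1000 in every row and so measures nothing. Per the file headers, histone regions compare T-ALL (written NIC) with DP cells. All starts and widths are multiples of 25 bp. Depth is unknown.

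Starts were converted to count from 1. Overlap meant 1 bp or more, and density was taken over the span between the outermost listed regions of each chromosome. Every member is named, as the rule for up to 40 members required. The planned fits per library could not be made for want of such values, and no motif search was run for Myc and Pvt1. Gene names and their order come from RefSeq on GRCm38.p6, and no coordinate of that build was used. The interval functions were tested on simulated data. Python 3.11.15, pandas 2.3.3, numpy 2.4.6 and scipy 1.17.1 were used. The window and the groups compared were chosen with earlier results of these data known.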

Additional observations from a re-analysis of the deposited data

How the results depend on the processing

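Of 41 alternatives tried, 37 kept the value within 1.5 times the reported count or, for the share of green, within its interval. Most of them, 37 in number, changed the minimum width, the merging of neighbours, the window, the distances counted, the place of the Myc start, the overlap asked for, or counted covered bases in place of regions. The other 4, on the windows laid over all chromosomes and on red regions between green ones, were chosen after seeing the data, and none of these 4 moved its value that far. Keeping only regions no narrower than the median of their list left 0 red H3K4me3 regions and a green share of 100%, since the red region at the Myc start is narrow, and left 6 green regions. Widening the window by 500 kb at each end gave 5 red regions beside the same number of green ones, 7, and 0 Notch1 peaks. Taking the distal stretch from 1.1 to 1.5 Mb gave 4 regions in place of 0. The ratio of H3K4me3 regions per Mb in the window to the rest of the chromosome was 0.470, and ranged from 0.453 to 0.699. No paired analysis was possible because no list gives a value for any one library, which also means that leaving out a replicate could not be tried. Overlap settings for Notch1 peaks could not change a value, as the window holds none. Nor could a count of 0 change under a minimum width, merging, or a narrower window or stretch. The same holds for asking that regions lie wholly inside the window. All these settings are counted among the alternatives that kept their value, so that count overstates how stable the results are. Depth, and with it the power to list a region here, is unknown.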
